A study of Mus musculus with 2 samples.

Results

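Npy, Npy1r and Penk are 3 genes of neuropeptide signalling, taken by their symbols from the 31053 genes counted in 2 spatial sections of the mouse calvaria, the bone of the skull vault. They were chosen by their counts in these same 2 sections and by the genes they varied with, so every level and ratio of theirs between the sections is a description. Both were taken at day 7 from a bone defect, left without the collagen/nHA material in Blank and repaired with that material in Col_nHA; strain, sex and age of the mice were not among the labels. Each group held 1 section, so the spread between animals is not known and no p-value is given. Spots were the barcodes with at least 3667 unique molecular identifiers (UMIs) in Blank, 2249 of 4992, or at least 4690 in Col_nHA, 2471 of 4992. The lowest totals kept were 3667 and 4690 UMIs and the highest left out were 3666 and 4687. A spot can hold several cells, and fewer cells of a kind cannot be told apart from less RNA in each.

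Npy encodes neuropeptide Y, which sympathetic nerves release beside noradrenaline, and Npy1r encodes the Y1 receptor that binds it. In mice, neuropeptide Y acting on Y1 receptors of the osteoblast lineage is known to restrain bone formation. Penk encodes proenkephalin, the precursor that proteases cut into enkephalins, peptides that bind opioid receptors; mesenchymal cells outside the nervous system are also known to transcribe it.

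By position in mouse assembly GRCm38.p6, Npy (ENSMUSG00000029819) is a protein-coding gene at chr6:49822710-49829507, Npy1r (ENSMUSG00000036437) lies at chr8:66697149-66706800 and Penk (ENSMUSG00000045573) at chr4:4133536-4138815. Promoters of Npy and Npy1r, from 250 bases before the start to 50 bases from it on, are printed for these reasons. Among the genes placed above, the sections differed most in Npy. The correlation of the ligand gene Npy with its receptor gene Npy1r across spots was -0.00 in Blank and -0.02 in Col_nHA. Counts of Npy1r were sparse, with 112 and 103 UMIs, which limits what these values can show. The promoter of Gpnmb is printed beside them because Gpnmb, a macrophage glycoprotein gene on the same chromosome as Npy, had the highest correlation with Npy in Col_nHA. The sequences are RefSeq's on GRCm38.p6, plus strand, for chr6:49822460-49822759 (Npy), chr8:66697172-66697471 (Npy1r) and chr6:49036268-49036567 (Gpnmb). The Npy1r window lies inside the gene span given above, so the start used for it is not the first base of that span. Capitals mark matches, on either strand, to the motifs searched.

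Npy: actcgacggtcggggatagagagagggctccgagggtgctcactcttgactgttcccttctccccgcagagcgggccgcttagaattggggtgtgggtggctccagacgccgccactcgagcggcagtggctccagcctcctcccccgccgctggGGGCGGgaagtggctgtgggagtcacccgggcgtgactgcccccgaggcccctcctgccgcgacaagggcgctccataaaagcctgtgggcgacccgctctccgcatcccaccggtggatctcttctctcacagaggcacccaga

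Npy1r: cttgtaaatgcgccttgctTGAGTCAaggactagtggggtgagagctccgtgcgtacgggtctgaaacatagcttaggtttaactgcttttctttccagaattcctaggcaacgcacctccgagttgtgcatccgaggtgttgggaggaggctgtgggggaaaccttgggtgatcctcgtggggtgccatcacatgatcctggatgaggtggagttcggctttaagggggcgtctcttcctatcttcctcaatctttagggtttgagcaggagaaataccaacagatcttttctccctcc

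Gpnmb: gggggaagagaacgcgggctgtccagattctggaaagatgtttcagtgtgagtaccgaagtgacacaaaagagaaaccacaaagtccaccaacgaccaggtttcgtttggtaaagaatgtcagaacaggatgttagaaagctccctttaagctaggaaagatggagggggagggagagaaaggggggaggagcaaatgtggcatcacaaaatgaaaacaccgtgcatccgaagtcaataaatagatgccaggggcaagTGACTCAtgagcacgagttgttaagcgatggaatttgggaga

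The Npy window held 1 GC box (GGGCGG) that began 95 bases before the start. A GC box was present in 35.66% of the 32851 promoters of the same length. An AP-1 site (TGANTCA) was present in 7.808% of promoters. It was matched as TGAGTCA 231 bases before the start used for the Npy1r window, and so inside the gene span given above. In the Gpnmb window it was matched as TGACTCA 8 bases after the start. The cyclic AMP response element (TGACGTCA, in 1.79% of promoters), the E-box of the MITF and TFE factors (CACGTG, 7.15%) and the TATA box (TATAAA, 13.62%) had no match in these 3 windows, and no matches overlapped. These matches are letters in a window and were not tied to the expression values.

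Npy was far more abundant in the Col_nHA section. It had 149 UMIs in the Blank spots, 4.85 CPM (UMIs scaled to a section total of 1000000; exact 95% Poisson interval 4.10 to 5.70), and 1804 UMIs, 44.9 CPM (42.8 to 47.0), in the Col_nHA spots. The ratio of Col_nHA over Blank was 9.25 (7.82 to 11, exact conditional binomial interval), which ranked 26 from the highest among the 14409 genes that had 1 CPM or more in either section. All intervals here cover counting error only, and a ratio compares these 2 libraries, not the treatments. Of those 14409 genes, 2.83% had a ratio of 2 or more and 8.02% were at least 2-fold lower in Col_nHA, and the median log2 ratio was -0.02. Among the 9855 genes at 10 CPM or more, where Npy and Penk remain, the shares were 1.83% and 3.4%. Npy was the only one of the 3 genes past 2-fold.

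The receptor gene went the other way and by less. Npy1r had 112 UMIs, 3.65 CPM (3.0 to 4.39), in Blank and 103 UMIs, 2.56 CPM (2.09 to 3.11), in Col_nHA, a ratio of 0.702 (0.532 to 0.926). Penk had 880 UMIs, 28.7 CPM (26.8 to 30.6), in Blank and 1600 UMIs, 39.8 CPM (37.9 to 41.8), in Col_nHA, a ratio of 1.39 (1.28 to 1.51). This Penk ratio rested on few spots: without the 1% of spots with the most Penk UMIs it was 1.13, and with each spot weighted equally it was 1.12. The Npy ratio without its own highest 1% of spots was 13.4.

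Free RNA and depth were looked at in the barcodes below the minimum, which had medians of 1248 UMIs in Blank and 1760 in Col_nHA. There Npy stood at 3.6 CPM (2.02 to 5.94) in Blank and 36.3 CPM (31.1 to 42.0) in Col_nHA, beside 4.85 and 44.9 in the spots. Penk stood at 34.8 and 37.1 CPM below the minimum, and Npy1r at 4.56 and 3.44. The barcodes below the minimum therefore did not lack these transcripts, and whether they lay over tissue was not tested. Each spot was also thinned to 2000 UMIs, so that shares of spots with a UMI could be compared at one depth. Npy then had a UMI in 1.38% of Blank spots (31 of 2249; exact Clopper-Pearson 95% interval 0.938 to 1.95) and in 7.04% of Col_nHA spots (174 of 2471; 6.06 to 8.12). The thinned shares of Penk were 5.60% in Blank and 5.63% in Col_nHA, with overlapping intervals of 4.69 to 6.63 and 4.75 to 6.61. For Npy1r the thinned shares were 0.622% and 0.405%, and their intervals of 0.341 to 1.04 and 0.194 to 0.743 overlapped too. At full depth, with medians of 9733 UMIs per spot in Blank and 13815 in Col_nHA, Npy was seen in 4.67% and 27.9% of spots, Npy1r in 4.22% and 3.08%, and Penk in 19.2% and 18.7%.

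**Figure D1:**
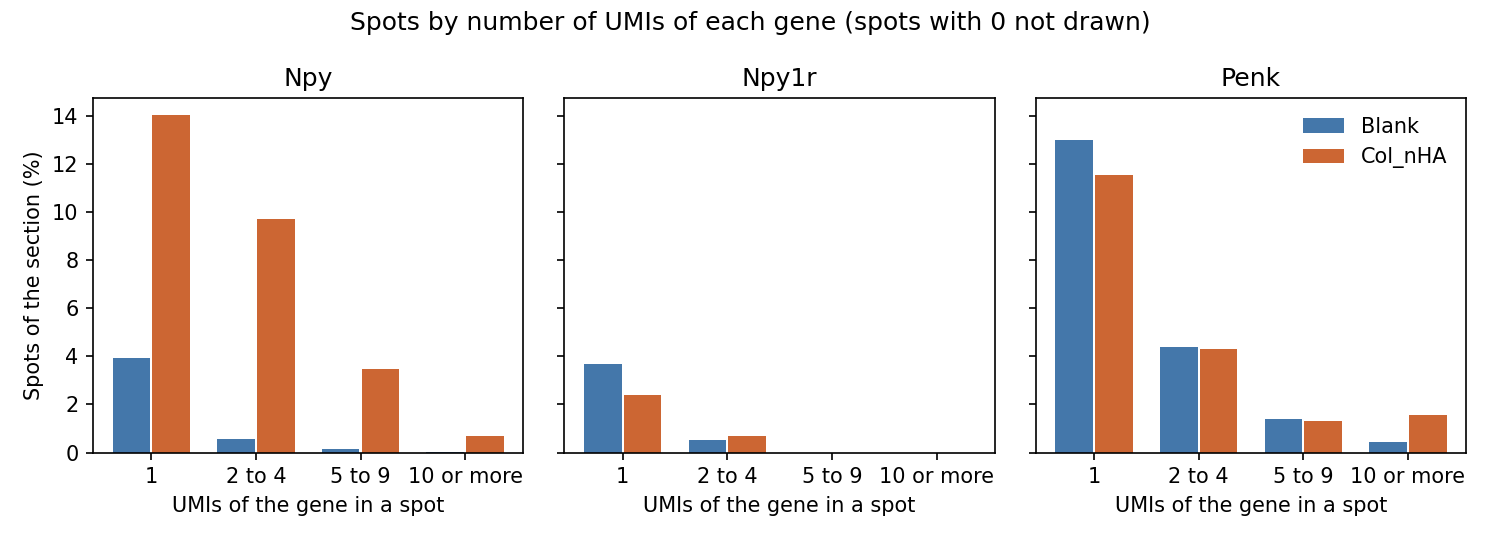
Share of the spots of each section (vertical axis, %) that held 1, 2 to 4, 5 to 9, or 10 or more UMIs of Npy, Npy1r or Penk (horizontal axis), with Blank in blue and Col_nHA in orange. Spots with 10 or more Penk UMIs numbered 10 in Blank and 39 in Col_nHA, and spots with 10 or more Npy UMIs numbered 1 and 17.

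The highest single spot held 11 Npy UMIs in Blank and 42 in Col_nHA, and the 1% of spots with the most held 45.0% and 20.6% of all Npy UMIs. For Penk the highest spots held 23 and 52 UMIs, and the top 1% of spots held 27.8% of its UMIs in Blank and 41.2% in Col_nHA. Npy1r never exceeded 4 UMIs in a spot of either section. The variance of UMIs per spot over their mean was 5.92 for Npy in Col_nHA, at percentile 98.4 among 1470 genes of like total, and 2.71 in Blank, at percentile 94.9 among 941 genes. With spots thinned to 2000 UMIs it was 1.27 in Col_nHA, percentile 97.3, but 0.986 in Blank, percentile 22.0, where the 31 UMIs left lay in 31 spots. For Penk this measure was 14.8 in Col_nHA, percentile 99.7, and 4.92 in Blank, percentile 97.7, and after thinning 1.78 and 1.30, percentiles 99.3 and 97.3. Of the 10 Npy-richest spots of Col_nHA, the highest had 448 Gpnmb UMIs and 0 UMIs of Cldn11, a tight-junction gene. The Penk-richest spot of Col_nHA had 8 Gpnmb and 5 Cldn11 UMIs, and that of Blank 0 and 19. Of the Npy-richest 10 spots of Col_nHA, 9 fell in region 2 of the clustering described further on, whereas all 10 of its Penk-richest spots fell in region 9. In Blank, 6 of the 10 Penk-richest spots were in region 9 and 4 in region 1.

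Across the 2471 Col_nHA spots, Pearson r of log2(counts per 10000 + 1) with Npy was highest for Gpnmb, at 0.59. Next came the lysosomal protease gene Ctsl and the galectin-3 gene Lgals3, both at 0.56, and then Ctsd, which encodes cathepsin D, and Spp1, which encodes osteopontin, both at 0.54. Ctss, which encodes cathepsin S, the prosaposin gene Psap and the tetraspanin gene Cd9 followed at 0.52, 0.51 and 0.51. Of 9044 genes with at least 10 CPM in Col_nHA, 3.39% had r of at least 0.2 with Npy. Spots of a section share a library, neighbours and depth, so r is a description; given the log10 of spot totals, r for Gpnmb was 0.59, and after thinning to 2000 UMIs it was 0.30.

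In Blank, with 149 Npy UMIs, correlations were weaker, and 4 of the 8 leading genes, Gpnmb, Spp1, Lgals3 and Ctsl, were also among the 8 of Col_nHA. The macrophage elastase gene Mmp12 and Gpnmb had r of 0.25 each, Spp1 0.24 and Lgals3 0.21. Il7r, encoding the interleukin-7 receptor, and Ctsl had 0.20, the interleukin-1 receptor antagonist gene Il1rn had 0.18 and the integrin gene Itgax 0.18. Only 0.0431% of 9271 genes reached 0.2 there. After thinning to 2000 UMIs, r of Mmp12 with Npy was 0.14, and 5 of those 8 genes were still among the 50 highest. Among the 50 genes with the highest r in each section, 28 were shared, including the lipid-droplet gene Plin2, the lipid receptor genes Cd36 and Trem2, and the kinase gene Fam20c. The sections had no spots in common for this comparison, although each r was taken after the other section's values were known.

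In Blank the highest r values with Penk were those of Shisa3 at 0.41, the organic cation exporter gene Slc47a1 at 0.41, Cldn11 at 0.40, and Smoc1, which encodes a calcium-binding matrix protein, at 0.40. Mgp, the gene of matrix Gla protein, had 0.38, the collagen VI gene Col6a5 and the Wnt antagonist gene Sfrp4 had 0.36 each, and the connexin gene Gjb6 had 0.35. In Col_nHA the order was Col6a5 at 0.59, the bicarbonate transporter gene Slc4a10 at 0.58, Sfrp4 at 0.56, Shisa3 at 0.55, the prostaglandin D2 receptor gene Ptgdr at 0.54, and Smoc1, Ildr2 and the growth factor gene Igf2 at 0.53. Of the 50 highest in each section, 35 were shared, among them the forkhead genes Foxc1, Foxc2 and Foxd1 and the chemokine gene Cxcl12. In Blank 0.626% of 9270 genes had r of at least 0.2 with Penk, and in Col_nHA 1.71% of 9044. After thinning to 2000 UMIs, r with Penk was 0.17 for Shisa3 in Blank and 0.23 for Col6a5 in Col_nHA, and Spearman rho at full depth was 0.33 and 0.38.

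Correlations with Npy1r were weak. The highest r values with Npy1r in Blank were those of Mgp, Slc4a10, Foxd1 and Comp, at 0.16 each. Foxp2, a forkhead gene, followed at 0.16, Slc26a7, an anion exchanger gene, at 0.15, Penk itself at 0.15 and Slc47a1 at 0.15. In Col_nHA they included Cldn11 at 0.29, Igf2 at 0.26, Slc4a10 at 0.25, and Sfrp4, Shisa3 and Crispld1 at 0.24, with Itih5 at 0.23. No gene reached 0.2 with Npy1r in Blank, 0% of 9271, and 0.144% of 9045 did in Col_nHA. These are weak correlations in sparse counts, and after thinning, r of Cldn11 with Npy1r was 0.06 in place of 0.29.

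**Figure D2:**
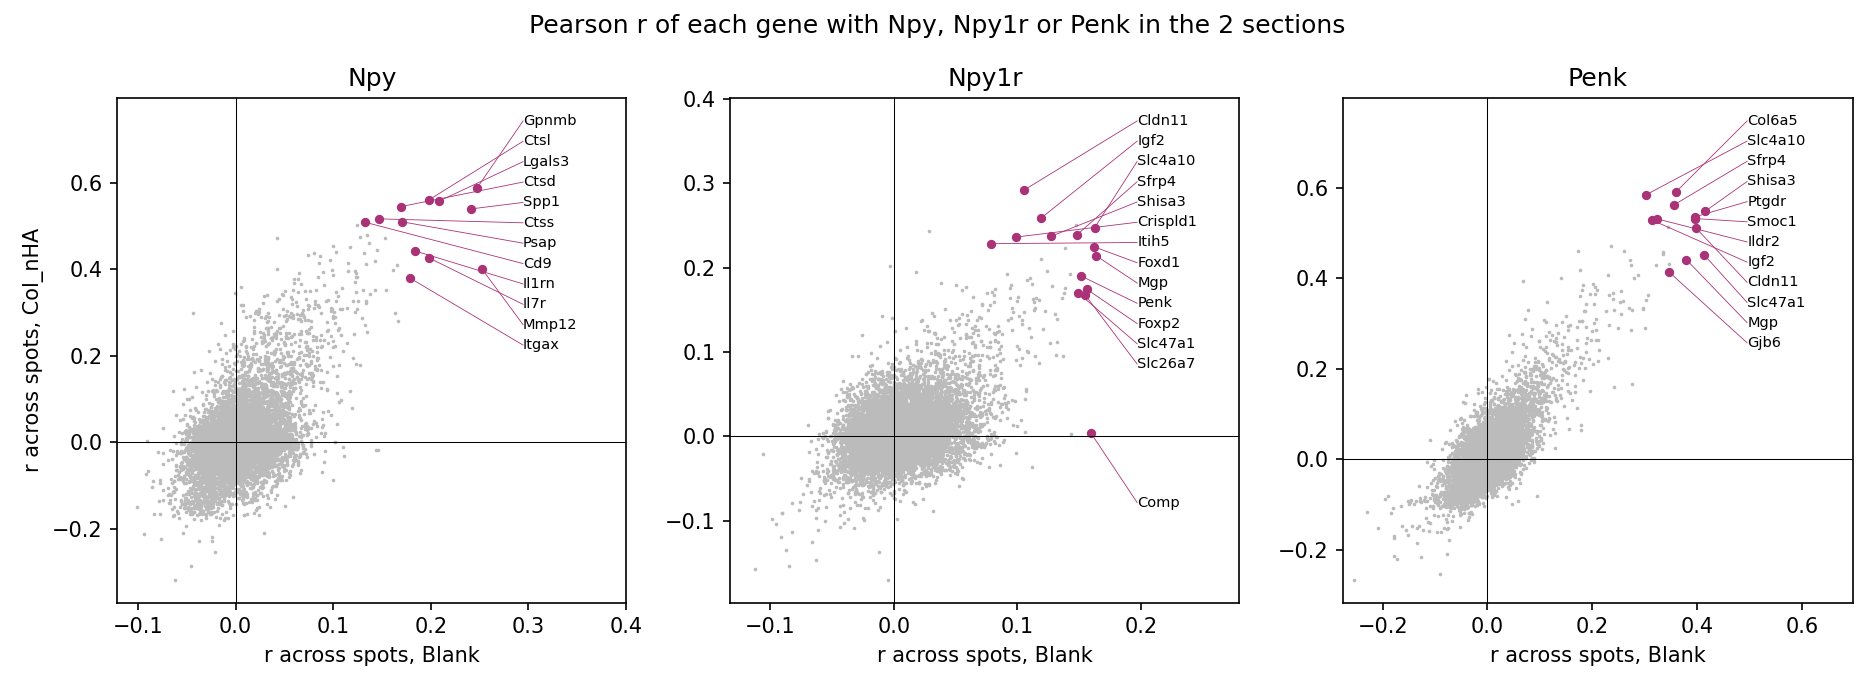
Pearson r across spots in Blank (horizontal axis, no unit) and in Col_nHA (vertical axis, no unit) of each gene with Npy, Npy1r and Penk, 1 point per gene; purple points are named genes from the 8 with the highest r in one or both sections. With Npy, Gpnmb stood at 0.25 in Blank, just behind Mmp12, and at 0.59 in Col_nHA, where it was highest. Col6a5 reached 0.36 and 0.59 with Penk, while Comp stood at 0.16 with Npy1r in Blank and 0.00 in Col_nHA.

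In Blank, 53.7% of the 95 spots with an Npy1r UMI also had a Penk UMI, against 17.7% of the other spots. In Col_nHA these shares were 59.2% of 76 spots and 17.4%. The 10% of spots with the most Penk UMIs held 39.3% of the Npy1r UMIs in Blank and 51.5% in Col_nHA. Between Npy and its receptor gene, r was -0.00 in Blank and -0.02 in Col_nHA, and Npy1r was found in 6.67% of the 105 Blank spots with Npy against 4.10% of the others, and in 3.04% of the 690 Col_nHA spots with Npy against 3.09%. Between Npy and Penk, r was -0.04 and -0.06. The shares of spots and of UMIs in this paragraph were taken without thinning, so they are partly set by the depth of the spots.

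Over all 37 lists used, 229 of 287 entries had at least 1 CPM, with 28 higher and 62 lower by 2-fold in Col_nHA, beside 2.83% and 8.02% of all genes at that level. Spots were then ranked by the share of their UMIs in lists of cell type markers, and the top 10% of spots were taken for each list. In Col_nHA, Npy was highest in the spots richest in macrophage and monocyte genes, at 151 CPM (141 to 162) against 27.2 in the rest, beside 150 CPM in those richest in T and NK cell genes. In those macrophage-rich spots 80.6% had an Npy UMI, against 22.0% of the rest, and they held 48.1% of the Npy UMIs and 14.3% of all UMIs. The macrophage-rich spots were deeper, with a median of 22570 UMIs against 13815 in all spots, so the shares are partly set by depth while CPM are not. Npy was lowest in the spots richest in smooth muscle genes, at 3.45 CPM (2.05 to 5.45), and in those richest in skeletal muscle genes, at 3.95 CPM (2.16 to 6.63), where 4.03% of spots had a UMI at a median of 13789.5 UMIs. In Blank the macrophage-rich spots held Npy at 14.5 CPM (11.1 to 18.7), the neutrophil-rich spots at 19.5 (14.7 to 25.4) and the spots rich in T and NK cell genes at 22.5 (16.9 to 29.3), against 1.77 (0.575 to 4.13) in the skeletal muscle-rich spots.

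Of the 10 macrophage and monocyte markers, 9 had r of at least 0.2 with Npy in Col_nHA, beside 3.39% of all genes, from 0.22 for the growth factor receptor gene Csf1r to 0.50 for Cd68, a lysosomal glycoprotein gene, and the mannose receptor gene Mrc1 had 0.08. None of the 10 reached 0.2 in Blank, where 0.0431% of all genes did. Cd68 was the highest of the 10 there at 0.12, which ranked 38 among 9271 genes. In the T and NK cell list, Il7r was the 1 gene above 10 CPM in Col_nHA, and its r with Npy there was 0.43. The T cell receptor genes Cd3e and Trac had 0.01 and -0.08 and the granule genes Nkg7 and Gzma 0.05 and 0.04. These genes were at 1.59, 9.40, 4.23 and 4.58 CPM, below the minimum set for r, so their low r cannot show whether they vary with Npy. Spots rich in megakaryocyte and platelet genes held 127 CPM of Npy in Col_nHA, and Pf4, the 1 gene of that list above 10 CPM, had r of 0.27. Of all genes counted, 2.83% were 2-fold higher and 8.02% 2-fold lower in Col_nHA. Beside those shares, 0 of the 10 macrophage and monocyte markers were 2-fold higher or lower, which is near what such shares give for 10 genes. Their sum was nonetheless larger in Col_nHA, 8616 CPM against 6393 in Blank. Of the 8 osteoclast markers, 6 were higher, with sums of 2493 CPM in Col_nHA and 1436 in Blank. The part of either list in the Npy ratio was not tested. In the osteoclast list, the proton pump gene Atp6v0d2 had 0.34 with Npy in Col_nHA and Acp5, which encodes the tartrate-resistant phosphatase, had 0.02.

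Penk and Npy1r stood highest among the lists in the spots richest in meningeal fibroblast genes, apart from Npy1r in Blank. Penk reached 114 CPM (103 to 127) in the Blank spots of that list, which held 42.6% of its UMIs, and 293 CPM (276 to 310) in the Col_nHA spots, which held 72.6%. Npy1r in the meningeal-rich spots was at 16.4 CPM (12.6 to 20.9) in Col_nHA, with 63.1% of its UMIs, and at 8.23 CPM (5.42 to 12) in Blank. The highest Npy1r level in Blank was in pericyte-rich spots, 9.84 CPM (6.42 to 14.4), whose interval overlapped the former. Of the 7 meningeal markers above 10 CPM, 3 had r of at least 0.2 with Penk in Blank, where 0.626% of genes did, and 6 in Col_nHA, where 1.71% did, with Cldn11 highest at 0.40 and 0.51 and the transcription factor gene Foxc1 next at 0.33 and 0.46. Penk was at 10.6 CPM in Blank and 9.03 in Col_nHA in the skeletal muscle-rich spots. The meningeal-rich spots of Blank and Col_nHA were not alike in make-up. Of the 225 taken in Blank, 68 had 20 to 40 list UMIs in the bins given further on. Those 68 held 188312 CPM of Ttr, the choroid plexus transthyretin gene, against 0 in the 37 Col_nHA spots of that bin. The levels of Penk and Npy1r in the meningeal-rich spots therefore do not compare like tissue between sections. Because the list was written with results known and holds genes that skull mesenchyme may share, it names no cell type for the meningeal-rich spots.

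**Figure D3:**
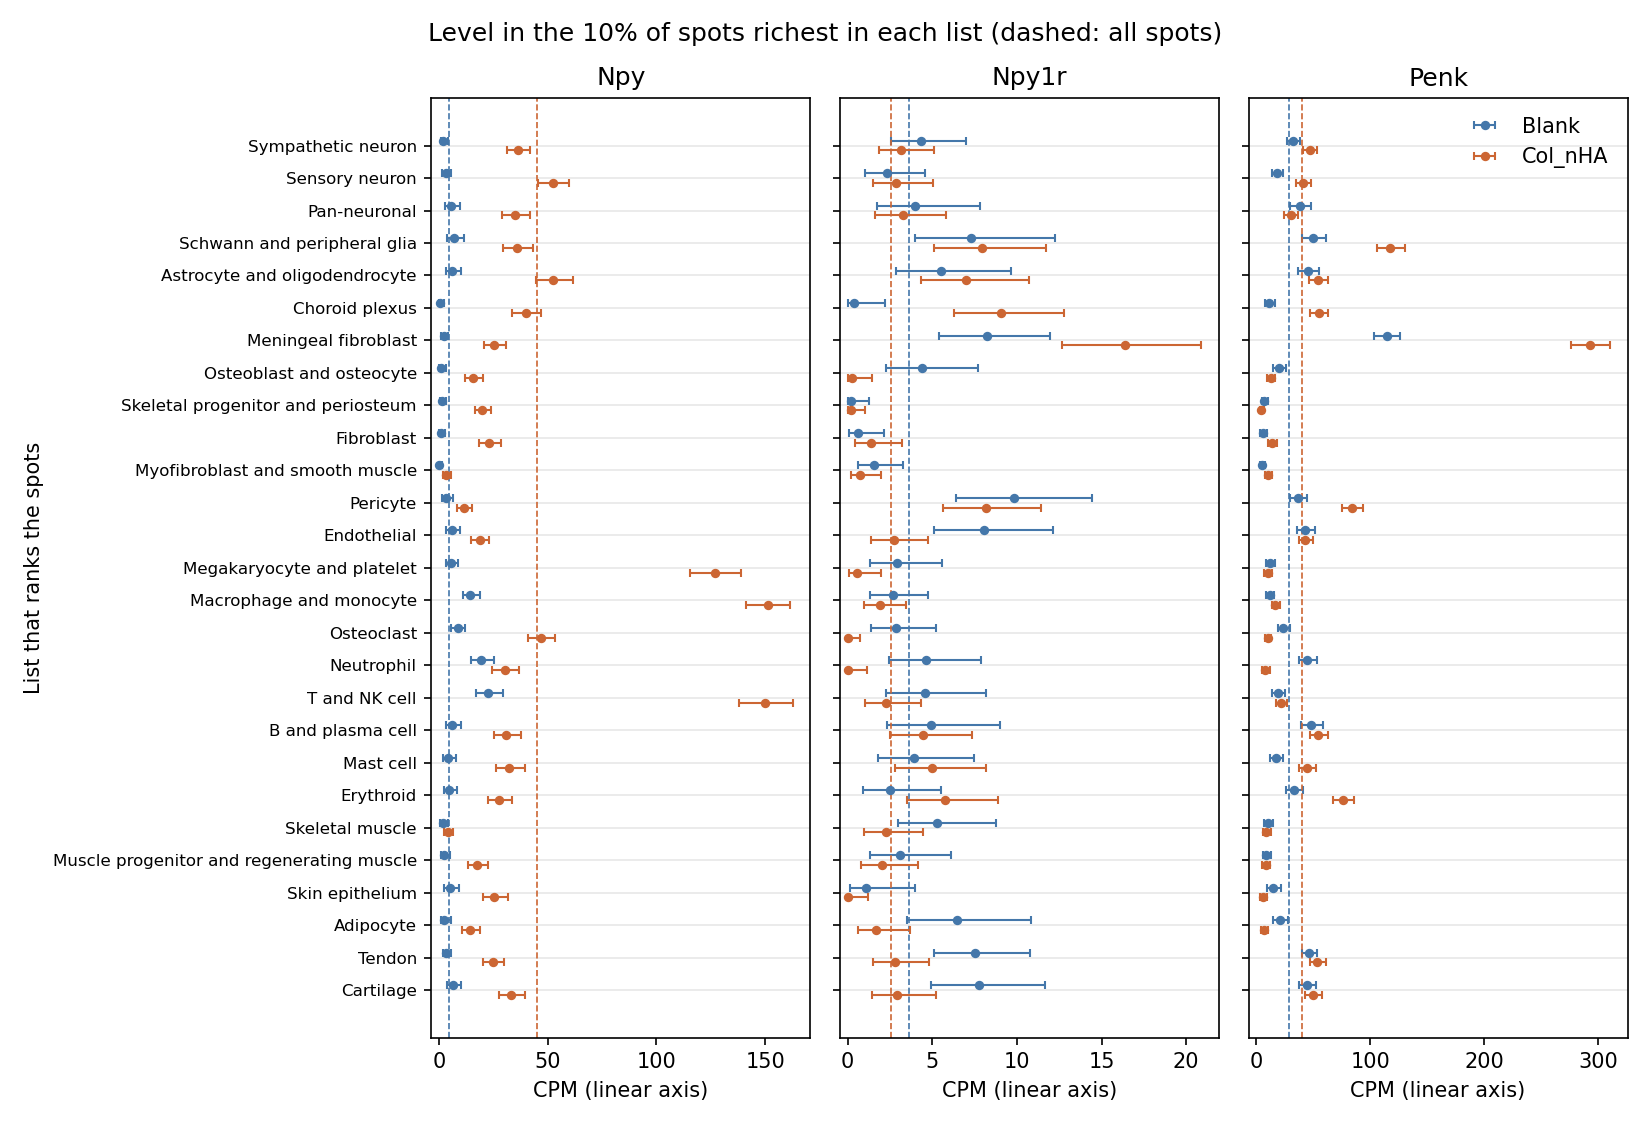
Level (CPM, linear horizontal axis) of Npy, Npy1r and Penk in the 10% of spots richest in each cell type list (vertical axis), with Blank in blue and Col_nHA in orange; bars are exact 95% Poisson intervals and dashed lines are the levels over all spots. Npy reached 151 CPM in the macrophage-rich spots and Penk 293 CPM in the meningeal-rich spots of Col_nHA. The meningeal-rich spots of Blank held much choroid plexus Ttr and those of Col_nHA did not, so these sets were not alike.

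Defining markers of sympathetic neurons were scarce in both sections. The sympathetic genes Th, which encodes the rate-limiting enzyme of catecholamine synthesis, and Dbh, the enzyme that makes noradrenaline, had 11 and 5 UMIs in Blank and 20 and 1 in Col_nHA. Summed over the 9 sympathetic markers, the level was 10.0 CPM in Blank and 5.37 CPM in Col_nHA. The best counted members of this sum were Ddc, with 136 and 80 UMIs, and Slc6a2, with 106 and 89. The 7 sensory neuron markers summed to 2.96 CPM in Blank and 1.52 CPM in Col_nHA. None of the sympathetic or sensory markers reached the 10 CPM set for r. In the 10% of spots richest in the sympathetic list, Npy was at 2.05 CPM (0.886 to 4.05) in Blank against 5.26 in the rest. In Col_nHA it was at 36.3 CPM (31.4 to 41.8) against 46.2. For the sensory list it was at 3.21 against 5.06 CPM in Blank and at 52.4 against 44.0 CPM in Col_nHA. Apart from the sympathetic list in Blank, these sets took in spots without a list UMI. In the 5% of spots richest in the sympathetic list, every spot had a list UMI. Npy was there at 14.9 CPM (10.2 to 20.9) in Col_nHA against 46.6 in the rest. In Blank it was at 0.963 CPM (0.0244 to 5.37), from 1 UMI, against 4.99. Whether Npy lay in spots with nerves was not tested. The pan-neuronal list of 10 summed to 43.2 CPM in Blank and 50.7 CPM in Col_nHA. Its better counted members were Uchl1, with 552 and 949 UMIs, Stmn2, with 345 and 548, and the tubulin gene Tubb3, with 180 and 493. Across the Col_nHA spots their r with Npy was 0.01, 0.03 and -0.03. The synaptic gene Snap25 had 195 UMIs in Blank against 6 in Col_nHA, and Rbfox3, a marker of neuronal nuclei, had 6 and 11.

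The other genes of the pathway were mostly low. Of the ligands related to Npy, Pyy had 0 UMIs in both sections and Ppy 2 and 4. The receptor genes Npy2r, Npy4r and Npy5r had 6, 5 and 1 UMIs in Blank and 4, 2 and 0 in Col_nHA, and Npy6r had none. Among the opioid precursors, Pomc had 61 and 102 UMIs, Pnoc 0 and 4, and Pdyn 0 and 0. The opioid receptor genes Oprm1 and Oprk1 had 0 UMIs in each section and Oprd1 0 and 4; a count of 0 allows up to 3 UMIs in the section. Ogfr, the receptor of opioid growth factor, and Ackr3, a receptor that also binds enkephalins, were well above these, at 75.8 and 55.7 CPM in Blank and 79.3 and 44.6 CPM in Col_nHA.

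Apart from Npy, Npy1r and Penk, the 8 pathway lists held 58 genes, of which 34 had at least 1 CPM. In Col_nHA, 2 of these 34 were higher by 2-fold or more (5.88%) and 10 were lower by as much (29.4%), beside 2.83% and 8.02% of all genes, with a median log2 ratio of -0.37 beside -0.02 for all genes counted. The higher ones were Ctsl, a protease that also cuts peptide precursors, at 729 and 1820 CPM, a ratio of 2.50 (2.46 to 2.53), and Nmb, which encodes neuromedin B, at 7.91 and 17.9 CPM, a ratio of 2.27 (1.96 to 2.63). All 5 dense-core granule genes above 1 CPM were lower, among them Chgb at 16.4 CPM in Blank and 0.398 in Col_nHA, and Chga at 3.58 and 1.04. The prohormone convertase gene Pcsk2 was lower too, at 1.73 and 0.0497 CPM. The Blank section also held choroid plexus transcripts, 12130 CPM summed over 8 markers against 141 in Col_nHA, and the part of that tissue in these differences was not tested. The peptidase genes Dpp4, Ace and Mme, whose products degrade neuropeptide Y or enkephalins, stood at 20.8, 134 and 18.6 CPM in Blank. In Col_nHA they stood at 6.02, 51.1 and 13.9 CPM, the first 2 past 2-fold. Of the 10 peptide-degrading genes listed, 8 were within 2-fold and 0 were higher by 2-fold, with a median log2 ratio of -0.13. Fap, Ece1 and Lnpep were lower by less, while Anpep, Dpp3, Dpp8 and Dpp9 were higher by less. Anpep was at 90.6 and 115 CPM, a ratio of 1.27 (1.21 to 1.33). Of 21 pathway genes above 10 CPM in Col_nHA, 2 had r of at least 0.2 with Npy there, beside 3.39% of all genes. They were Ctsl at 0.56 and Anpep at 0.30. Cpe, which encodes the carboxypeptidase that trims peptide precursors, was at 170 and 143 CPM, a ratio of 0.843. Its r with Penk was 0.24 in Blank and 0.33 in Col_nHA. It was 1 of 21 pathway genes above 10 CPM to reach 0.2 with Penk in each section, beside 0.626% and 1.71% of all genes.

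Spots of both sections were clustered together without the 3 genes, which gave 17 regions, named here by number and leading genes. Regions with at least 40 spots of a section are described, a minimum set after the regions were seen, and regions 2, 9 and 11 had that many of both. Region 2, led by Rgs1, F7 and Il7r, had 376 Col_nHA spots and 50 Blank spots. Npy stood there at 144 CPM (136 to 153) in Col_nHA, 58.6% of that section's Npy UMIs, and at 51.8 CPM (39.1 to 67.2) in Blank, 37.6% of its Npy UMIs. Its ratio within region 2 was 2.79 (2.13 to 3.71), beside 9.25 over whole sections. In region 9, Npy stood at 2.50 CPM in the Blank spots and 13.6 CPM in the Col_nHA spots, a ratio of 5.41 (1.42 to 45.9). In region 11 it was at 1.23 and 11.7 CPM, a ratio of 9.49 (2.23 to 85.1), and the Blank level rested on 2 UMIs in each of these regions. Region 14, led by Ly6i and Gzma and present in Col_nHA, had Npy at 99.8 CPM (88.0 to 113), and region 6, led by Cxcl5 and Arg1, at 35.7 CPM (29.96 to 42.2). In region 16 of Blank, led by Htr2c and Kcne2, Npy and Npy1r had 0 UMIs in 132 spots, which allows up to 1.79 CPM.

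Region 9, led by Ptgdr, Col6a5 and Gjb6, held most of the Penk of Col_nHA. There Penk was at 307 CPM (270 to 348) in the 48 Blank spots and at 301 CPM (284 to 319) in the 221 Col_nHA spots, a ratio of 0.980 (0.853 to 1.13). These spots held 27.8% of the Penk UMIs of Blank and 72.1% of those of Col_nHA. Npy1r in region 9 was at 22.5 CPM (13.4 to 35.6) and 16.7 CPM (12.8 to 21.3), a ratio of 0.740 (0.433 to 1.33), and the Col_nHA spots held 62.1% of that section's Npy1r UMIs. At a coarser resolution of 0.3, the Penk-richest region had 221 Blank and 310 Col_nHA spots, with Penk at 137 CPM (125 to 150) and 215 CPM (204 to 227), so the likeness of levels depended on how finely spots were clustered. In Blank, region 1, led by Gpha2, Shisa3 and S100b, held 38.9% of the Penk UMIs at 61.8 CPM (55.4 to 68.7) and 40.2% of the Npy1r UMIs at 8.13 CPM (5.93 to 10.9). Region 11, led by Slc13a5 and Col22a1 with the osteoblast gene Sp7 also among its leading genes, had lower Penk in Col_nHA, 15.4 against 33.3 CPM, a ratio of 0.461 (0.265 to 0.776), and Npy1r there had 11 UMIs in Blank and 1 in Col_nHA. Genes that varied with Npy or Penk took part in the clustering, so the height of a gene in a region is not independent of those correlations.

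**Figure D4:**
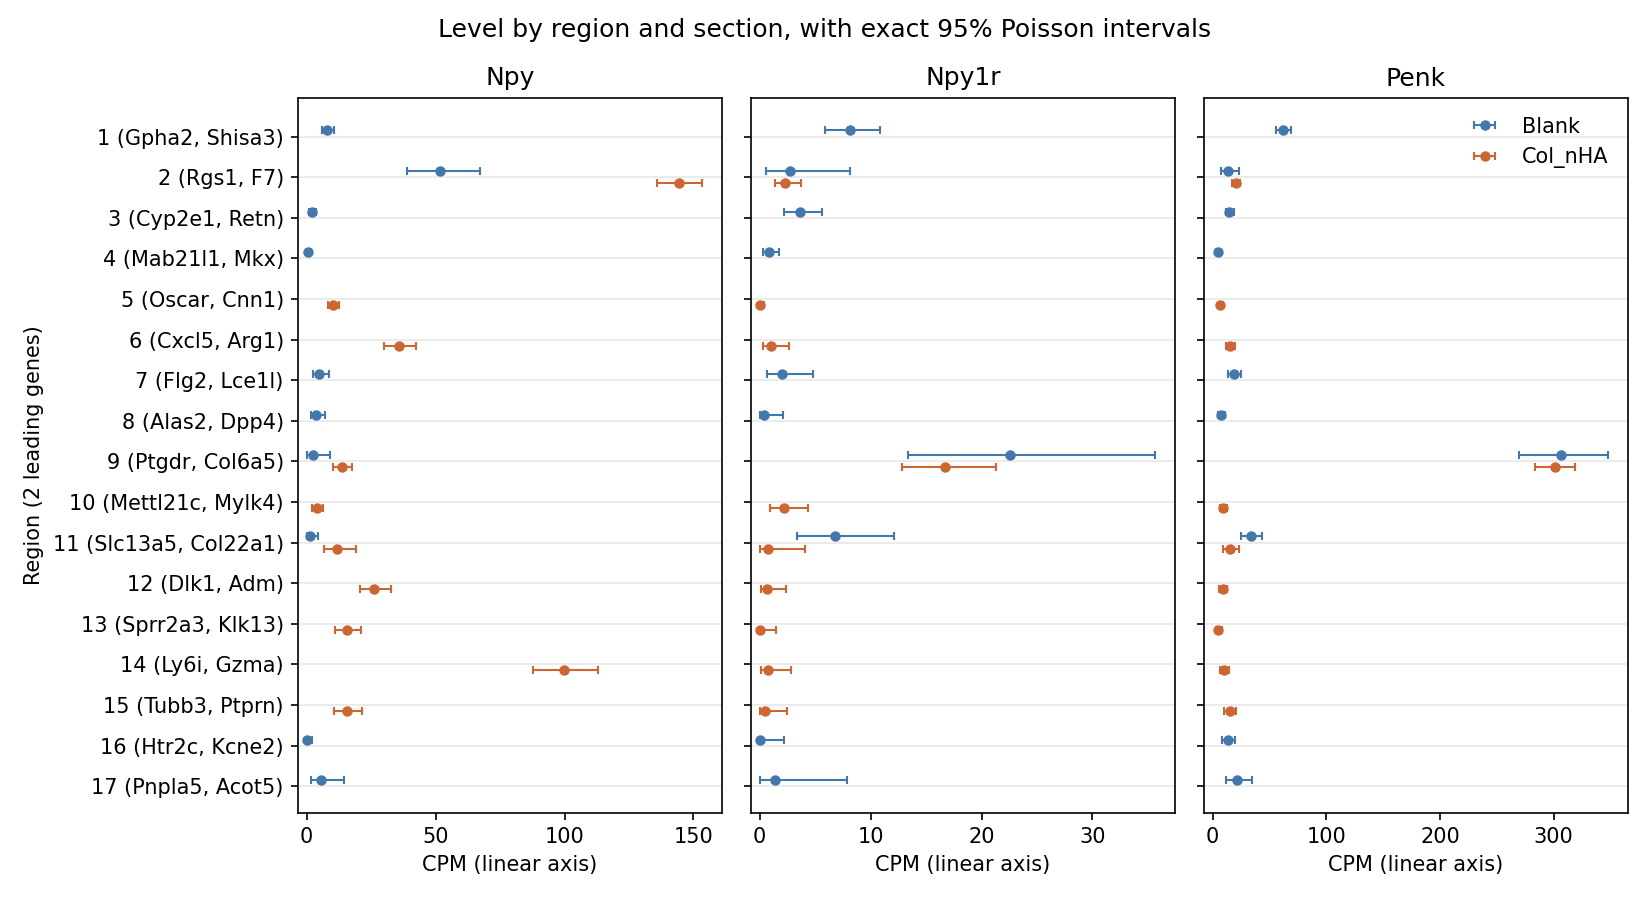
Level (CPM, linear horizontal axis) of Npy, Npy1r and Penk in each of the 17 regions (vertical axis, with 2 leading genes), Blank in blue and Col_nHA in orange; bars are exact 95% Poisson intervals, and a section with under 40 spots in a region is not drawn. Npy stands apart in region 2 (144 and 51.8 CPM), and Penk in region 9 (301 and 307 CPM).

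Npy was also compared between spots of like Gpnmb or Spp1 content. Both genes were among those with the highest r with Npy in these same spots and were higher in Col_nHA, so smaller ratios within their bins follow from that choice and are a description. Spots were binned by Gpnmb UMIs per 10000 UMIs, and the level of Npy was higher in each bin than in the one before, except in the second bin of Blank, going from 2.29 CPM in Blank and 4.74 CPM in Col_nHA without Gpnmb to 113 and 183 CPM at 20 or more. Ratios of Npy within the 6 bins were 2.07, 4.37, 4.88, 2.43, 2.07 and 1.63, beside 9.25 over whole sections. The last bin had 20 Blank spots against 281 in Col_nHA. Binned by Spp1, the 6 ratios ran from 0.701 to 3.82, and 4 of the 6 intervals included 1. In the bin of 50 to 100 Spp1 UMIs per 10000, Npy was at 31.7 CPM (21.5 to 45.0) in Blank and 27.7 CPM (23.9 to 32.0) in Col_nHA. With 100 or more Spp1 UMIs it was at 63.2 CPM in 38 Blank spots and 142 CPM in 598 Col_nHA spots, a ratio of 2.24 (1.63 to 3.19). Binned by the share of the macrophage and monocyte list, Npy ratios lay between 2.26 and 9.92, the highest at 1 to 1.5% of UMIs in the list. Over whole sections, Gpnmb was at 964 CPM in Col_nHA against 246 in Blank, and Spp1 at 8498 against 1481 CPM.

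**Figure D5:**
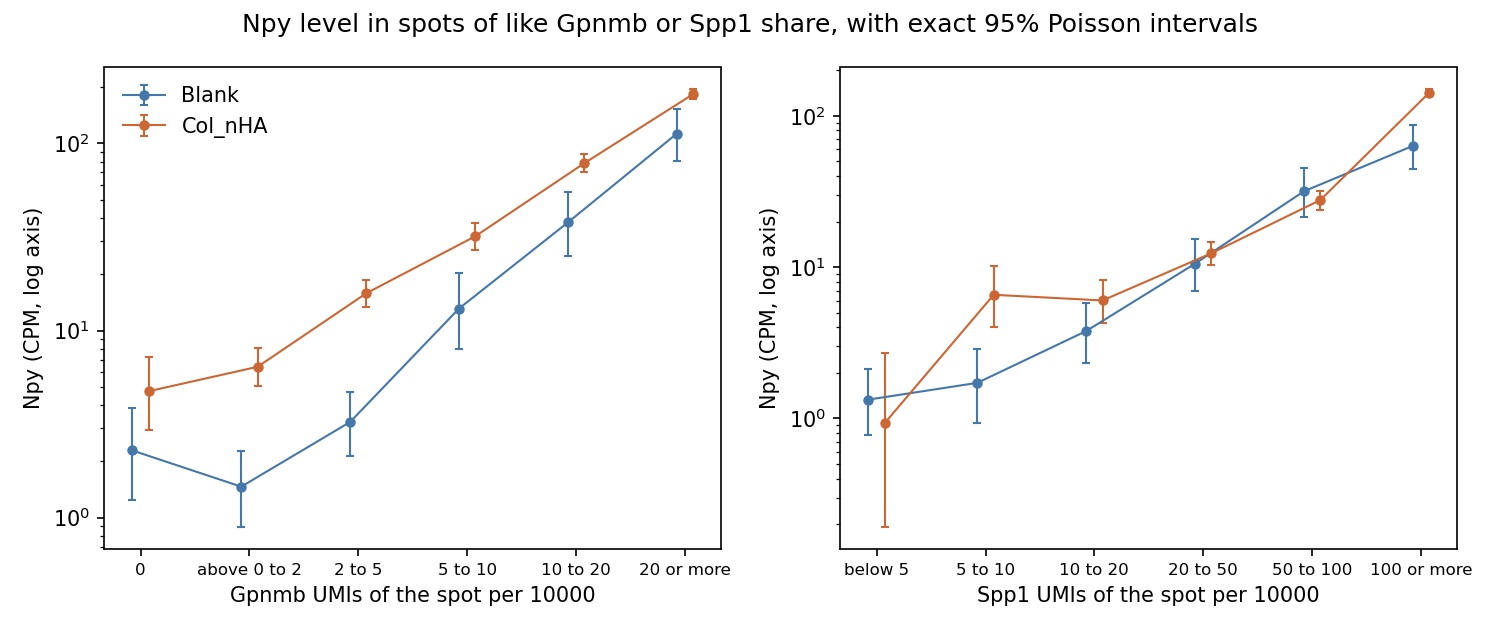
Npy level (CPM, log vertical axis) in spots binned by Gpnmb (left) or Spp1 (right) UMIs per 10000 UMIs of the spot (horizontal axis), Blank in blue and Col_nHA in orange; bars are exact 95% Poisson intervals. Npy went from 2.29 to 113 CPM in Blank and from 4.74 to 183 CPM in Col_nHA between the first and last Gpnmb bins, while in the 50 to 100 Spp1 bin the sections were at 31.7 and 27.7 CPM.

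Binned by the UMIs of the meningeal list per 10000, Penk ratios differed from bin to bin. Under 5 list UMIs, in 1506 Blank and 1954 Col_nHA spots, Penk was at 11.7 and 9.22 CPM, a ratio of 0.785 (0.661 to 0.934). At 5 to 10, in 501 and 332 spots, it was at 39.9 and 49.1 CPM, a ratio of 1.23 (1.03 to 1.47). At 10 to 20, in 170 and 129 spots, the ratio was 2.25 (1.94 to 2.62), with 124 and 279 CPM. These spots were not alike in make-up. Ttr, the choroid plexus transthyretin gene, was at 15115 CPM in the Blank ones and 0.504 CPM in the Col_nHA ones. Igfbp2 made up 30.6% and 19.3% of their list UMIs. The spots with more list UMIs were few and unlike each other. At 20 to 40, Penk was at 84.1 CPM (68.1 to 103) in 68 Blank spots and 484 CPM (431 to 541) in 37 Col_nHA spots. Those Blank spots held 188312 CPM of Ttr against 0 in Col_nHA, and Ptgds made up 46.9% of their list UMIs against 24.4%. Foxc1 was at 105 CPM in those Blank spots and 359 CPM in the Col_nHA spots, so a like sum of the list held unlike members.

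The files list the same barcodes, 4992 in each, and 1345 of them were spots in both sections. The 499 barcodes with the most Npy UMIs in Col_nHA were looked up in Blank. They held 82.1% of Npy UMIs in Col_nHA, 20.1% of the 164 Npy UMIs over all Blank barcodes and 10.3% of all Blank UMIs.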

How the data were processed

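The deposited files hold, for each of the 2 sections, raw UMI counts per gene and barcode; per the submitters' processing notes the authors used Space Ranger with build mm10 (version not given in the sources used here), and per the file headers the matrices were written in the format of Cell Ranger 4. The extraction text in the labels is that of a droplet single-cell library, although the sections are described as fresh-frozen spatial samples. The files held 34868368 UMIs in Blank and 45137685 in Col_nHA, of which 88.1% and 89.1% were in spots. Spot totals did not part cleanly, with 265 and 215 barcodes within 10% of the minimum.

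Counts were summed over spots and scaled to CPM of the section total. With 1 section per group no test was made; Poisson, conditional binomial and Clopper-Pearson intervals at 95% were exact. Thinning drew 2000 or 500 UMIs per spot. For r, genes had at least 10 CPM in the section, mitochondrial, ribosomal protein, haemoglobin and unnamed genes were left out of the ranking, and the 8 highest per gene and section were named, apart from 1 not reported here; further genes came from those among the 50 highest in both sections, from the pathway lists, and from the cell type lists. Beyond that rule, Mrc1, Csf1r, Cd3e, Trac, Nkg7, Gzma, Atp6v0d2, Foxc1, Snap25, Uchl1, Stmn2, Tubb3, Rbfox3 and Dbh were picked after their values were seen. The members, the 37 lists with 287 entries and the bins were chosen with earlier results of these data known. Regions came from 2000 variable genes, 30 principal components, 15 neighbours and Leiden resolution 0.6, without batch integration. A gene name table held 30934 of the 31053 IDs. No doublet caller was run, since a spot holds several cells. Calculations were tested on simulated data. The software was R 4.3.3 with edgeR 4.0.16 for TMM factors alone, and Python 3.11.15 with scanpy 1.11.5, igraph 0.11.9, scipy 1.17.1, numpy 2.4.6, matplotlib 3.10.9 and pandas 2.3.3. Alternatives were every barcode, 1.5 times the UMI minimum, other scalings, CPM minimums, thinning depths, measures of r, shares of spots and resolutions of 0.3 and 1.0.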

Additional observations from a re-analysis of the deposited data

Results flagged for a closer look

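Npy in the Col_nHA barcodes below the UMI minimum, which enter no comparison of spots, stood at 36.3 CPM (31.1 to 42.0; 179 UMIs), above the 3.6 CPM (2.02 to 5.94; 15 UMIs) in those of Blank. The ratio was 10.1 (5.94 to 18.4), beside 9.25 in the spots.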

How the results depend on the processing

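No paired analysis was possible because each group holds 1 section, and for the same reason no replicate could be left out. Over the UMI minimums and scalings tried, the ratio of Npy lay between 8.46 and 9.56, that of Npy1r between 0.606 and 0.726 and that of Penk between 1.12 (mean of per-spot CPM) and 1.46; without the 1% of spots with the most UMIs of the gene itself they were 13.4, 0.541 and 1.13. With a minimum of 10 CPM, 180 genes were at least 2-fold higher and 335 lower, and 3 pathway genes lower; with no minimum these were 840 and 2137, and 6 pathway genes were higher. Shares of spots with a UMI in Blank and Col_nHA were, without thinning, 4.67% and 27.9% for Npy, 4.22% and 3.08% for Npy1r and 19.2% and 18.7% for Penk, and at 500 UMIs 0.400% and 2.14%, 0.178% and 0.121%, and 1.82% and 1.58%. After thinning to 2000 UMIs, the 1% of spots with the most held 26.6% of Npy UMIs and 36.5% of Penk UMIs in Col_nHA. The 74.2% for Npy in Blank is fixed by its 31 spots with 1 UMI each and carries no information on spread, and for Npy1r no value can be given. Thinning kept among the 50 highest 5 of the 8 genes with the highest r with Npy in Blank, and 1 and 4 of 8 with Npy1r in Blank and Col_nHA. In its highest region, Npy was at 31.7 CPM in Blank at resolution 1.0, and in Col_nHA at 71.9 CPM at 0.3 and 168 CPM at 1.0; Penk was at 137 CPM in Blank at 0.3, and in Col_nHA at 215 CPM at 0.3 and 335 CPM at 1.0. In the 5% of Col_nHA spots richest in meningeal genes, Npy1r was at 24.3 CPM and Penk at 408 CPM. The causes were not tested. Depth limits Npy1r most: with 112 and 103 UMIs its shares after thinning rest on 14 and 10 spots.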
